A study of Mus musculus with 4 samples.

Results

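The regions described here are stretches of DNA at the 3′ ends of protein-coding genes that were called as accessible in the second control library and in no other library. Peaks of all 4 lists on chromosomes 1 to 19 and X were merged when they shared at least 1 bp, which gave 35988 regions. A region was kept when its only peak lay in control replicate 2, its centre was within 1 kb of the 3′ end of a coding gene and more than 1 kb from every transcription start site (TSS), and it lay outside annotated pseudogenes. This left 825 of the 35988 regions, or 6.54% of the 12617 regions seen in control replicate 2 alone. They lay at 806 genes, called marked genes below, of which 19 carried 2 regions each. The regions were selected on the peak calls themselves, so their calls, folds and presence in 1 list are given as a description and were not tested.

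Accessible chromatin was measured by ATAC-seq in RAW264.7 cells, a macrophage-like line of mouse origin. All cells were wild type and had received 25 ug/mL DIL-oxLDL, a dye-labelled oxidized lipoprotein that drives lipid loading, for 24 h. DMSO was given to the control cells (n = 2 libraries), and esculetin, a coumarin of plants, was given at 40 ug/mL to the others (n = 2 libraries). The labels do not say whether the libraries of a group came from separate cultures, and both arms were oxLDL-loaded, so there was no group without lipoprotein.

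Control replicate 2 stood apart from the other libraries before any gene was considered. Its list held 27833 peaks, against 19595 in the first control and 8677 and 12792 in the esculetin libraries. Read totals were not in the lists. The genome-wide background coverage, which was solved from the fold and p of each summit and scales with the reads used, was 4.08 in control replicate 2 and 6.51 in control replicate 1, with 4.97 and 4.10 in the esculetin libraries. The longest list therefore did not come from the library with the highest background coverage. Of 12 macrophage markers, 6, 7, 1 and 4 had a promoter peak in control replicates 1 and 2 and esculetin replicates 1 and 2. None of the markers of T cells, B cells, epithelium, hepatocytes or fibroblasts had a promoter peak in any library.

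The 3′ end of a gene holds the last exon, most of the 3′ untranslated region and the site where the transcript is cleaved and polyadenylated. In ATAC-seq the Tn5 transposase cuts open DNA and adds sequencing adapters, and most strong signal is found at promoters and enhancers, where nucleosomes are displaced. Gene 3′ ends are usually weaker in such maps. Tn5 can also insert into hybrids of DNA and RNA, and in lists of peaks reads from DNA and reads copied from RNA cannot be told apart.

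The promoters of the marked genes are a readout that the rule did not use. Promoter sequences are shown for 3 marked genes that had a promoter peak in all 4 lists. Ppp2ca, the catalytic subunit of protein phosphatase 2A, had the highest fold of all members. Eif3d, a subunit of the initiation factor eIF3, had the highest such fold among the translation factors, and Atp6ap1, an accessory subunit of the vacuolar proton pump, had the highest among lysosomal genes. Each sequence is the 250 bases before the TSS in RefSeq GRCm38.p6, read 5′ to 3′ on the strand of the gene, at chr11:52098574-52098823 (plus strand), chr15:77970825-77971074 (minus strand) and chrX:74296847-74297096 (plus strand). Capitals mark matches, on either strand, to any of 7 short motifs that are listed with their frequencies further on.
Ppp2ca promoter: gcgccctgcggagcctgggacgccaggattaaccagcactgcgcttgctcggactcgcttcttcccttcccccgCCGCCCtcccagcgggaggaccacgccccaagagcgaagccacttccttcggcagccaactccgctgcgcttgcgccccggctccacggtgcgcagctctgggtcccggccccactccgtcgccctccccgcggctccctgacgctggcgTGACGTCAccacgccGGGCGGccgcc
Eif3d promoter: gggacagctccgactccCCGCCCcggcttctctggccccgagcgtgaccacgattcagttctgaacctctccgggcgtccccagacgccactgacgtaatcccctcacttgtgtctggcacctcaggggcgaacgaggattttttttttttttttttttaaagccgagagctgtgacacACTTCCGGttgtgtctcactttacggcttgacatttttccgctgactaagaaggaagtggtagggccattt
Atp6ap1 promoter: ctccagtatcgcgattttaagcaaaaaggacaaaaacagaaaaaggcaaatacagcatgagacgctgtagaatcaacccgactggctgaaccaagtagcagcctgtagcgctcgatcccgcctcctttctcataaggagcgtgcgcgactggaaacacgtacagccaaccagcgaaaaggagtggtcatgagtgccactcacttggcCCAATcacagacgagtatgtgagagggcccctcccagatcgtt

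In control replicate 2 alone, 6.54% of regions lay at a 3′ end (825 of 12617, exact 95% interval 6.11 to 6.98%), against 3.54% of all regions. All intervals on shares are Clopper-Pearson intervals and cover counting error only. The share was 3.6% of the regions in control replicate 1 alone (158 of 4394, 3.06 to 4.19%) and 2.36% of those in both controls only (118 of 4991, 1.96 to 2.82%). It was 1.54% in esculetin replicate 1 alone (12 of 777) and 1.82% in esculetin replicate 2 alone (45 of 2478). Of the 6174 regions with a peak in all 4 libraries, 31 lay at a 3′ end (0.502%). Most of the 6174 lay within 1 kb of a TSS, where the rule accepts none. Counted over distal regions alone, those over 1 kb from a TSS, the share was 8.35% of 9886 in control replicate 2 alone (7.81 to 8.91%), 4.47% of 3537 in control replicate 1 alone (3.81 to 5.20%), 3.24% of 3647 in both controls only (2.69 to 3.86%) and 3.05% of 1016 in all 4 libraries (2.08 to 4.30%). It was 1.82% of 660 in esculetin replicate 1 alone (0.943 to 3.15%) and 2.31% of 1948 in esculetin replicate 2 alone (1.69 to 3.08%). In both controls and esculetin replicate 1 only it was 8.42% of 190 (4.89 to 13.3%). In control replicate 2 and esculetin replicate 1 only it was 14.4% of 90 (7.92 to 23.4%). Both of these smaller classes lay at or above the 8.35% of control replicate 2 alone. Regions of all 4 libraries thus lay below those of a single esculetin library over all regions but not over distal ones. Over the whole list of control replicate 2 the share was 3.82%, over that of the first control it was 1.91%, and the esculetin lists had 1.05% and 1.02%. The controls differed from each other by more than the esculetin libraries did. When each list was limited to its top 8559 peaks by p, the first control had 1.04% and the esculetin lists 1.01% and 0.693%, against 3.75% in control replicate 2, so at equal numbers of peaks the first control was close to esculetin replicate 1. With 2 libraries per group no test between treatments was made.

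**Figure D1:**
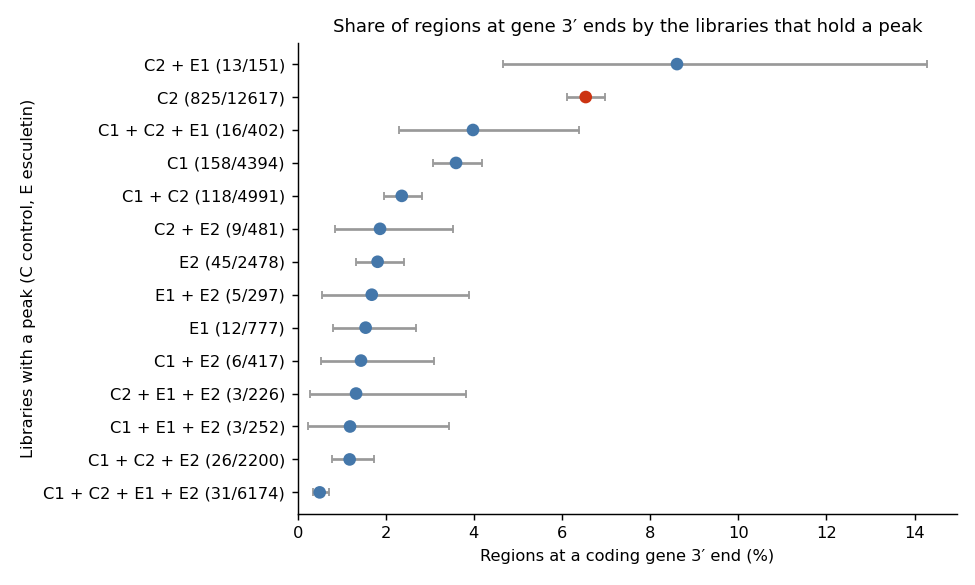
Share of merged regions at a coding gene 3′ end (x axis, percent) for each combination of libraries that held a peak (y axis, C control and E esculetin replicates, with counts), for combinations of at least 150 regions. Bars are exact 95% intervals. The red point, control replicate 2 alone, is at 6.54%, and regions shared by all 4 libraries are at 0.502%.

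The regions lay inside the genes rather than behind them. The centre was upstream of the 3′ end, within the gene, in 695 of 825 (84.2%, 81.6 to 86.7%), and the median position was -490 bp (negative values lie inside the gene) with quartiles of -730 and -234 bp. The corresponding share was 65.8% in control replicate 1 alone (57.9 to 73.2%, n = 158), 69.5% in both controls only (60.3 to 77.6%, n = 118) and 54.8% in regions of all 4 libraries (36.0 to 72.7%, n = 31). The rule fixed the distance of the centre but not its side. Of the 130 regions behind a 3′ end, 74 (56.9%) lay inside another coding gene. A region near the ends of several genes was given to the nearest, and 90 regions (10.9%) had 2 or more coding 3′ ends within 1 kb.

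**Figure D2:**
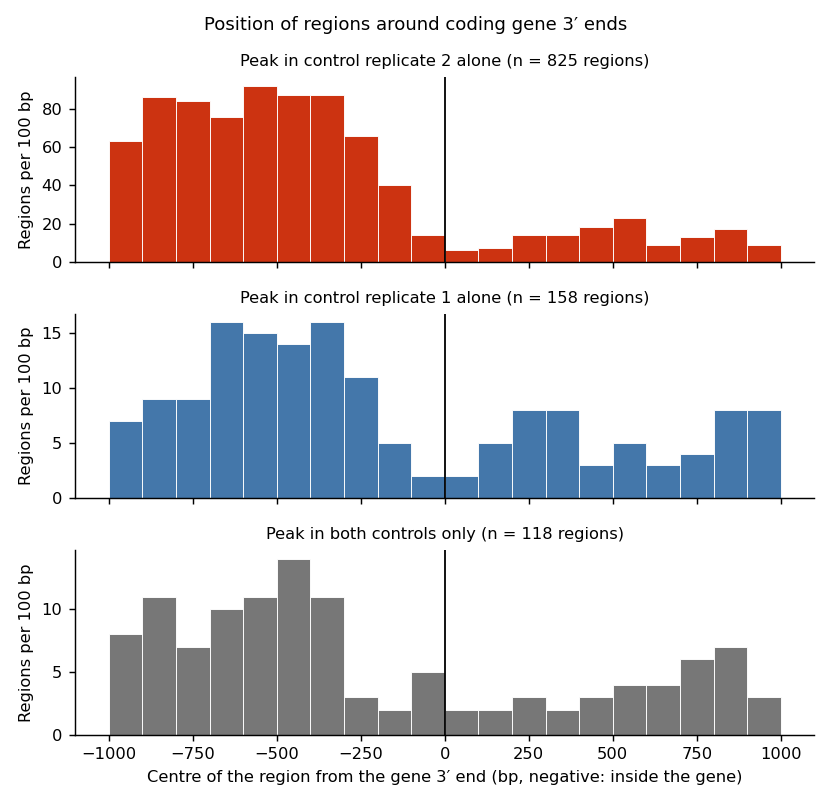
Number of regions per 100 bp (y axis) by the distance of their centre from the gene 3′ end (x axis, bp, negative inside the gene), for regions in control replicate 2 alone, in control replicate 1 alone and in both controls only. In control replicate 2 alone 695 of 825 regions sit left of the line at the gene end. The y axes differ.

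The decline was steep at the gene end and gradual inward. Counted in bins of 250 bp from the 3′ end into the gene, control replicate 2 alone had 91, 203, 212 and 189 regions within 1 kb and 188, 186, 143 and 146 in the next 4 bins, which the rule leaves out. Behind the gene the same bins held 20, 39, 39 and 32 regions within 1 kb. The limit of 1 kb therefore cut through a continuous series. The members nearest to it were Wiz at 1000 bp (fold 3.57), Ndel1 at 999 bp (fold 8.54) and Zfp768 at 998 bp (fold 9.94), all upstream, and Prss36 at 998 bp downstream (fold 3.52), and regions just outside were those of Fem1c (fold 5.93) and Hoxc6 (fold 4.83), both at 1001 bp upstream. The member nearest the peak limit was that of Mylip, with a −log10 q of 1.82 and a fold of 2.75, followed by Plxnd1 at 2.27.

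Most of the regions that could be placed fell in the last exon. Exon lengths were usable for the genes whose main GENCODE transcript spans the RefSeq gene to within 50 bp. Of the 825 regions, 234 lay at such genes and could be placed. The centre was in the last exon in 181 of them (77.4%, 71.4 to 82.5%), in an earlier part of the gene in 15 (6.41%) and behind the gene in 38 (16.2%). Over all 6381 such genes the last exon takes up 38.0% of the 2 kb window around the 3′ end. That window includes the side behind the gene, where the last exon cannot lie. The 38.0% is therefore not the share of the last exon within the gene side alone. In control replicate 1 alone the last exon held 32 of 57 regions (56.1%, 42.4 to 69.3%), and among regions of the esculetin libraries only it held 2 of 13 (15.4%, 1.92 to 45.4%). Without this limit on the span, exon lengths and counts were available for 789 marked and 19322 eligible genes. Their last exons were of ordinary length, with a median of 1337 bp in marked genes and 1418 bp in eligible genes. Marked genes had a median of 9 exons against 7, and 2.15% had a single exon against 4.88%. Their length had a median of 21250 bp, against 17862 bp for all eligible genes. Chromosome X carried 36 of the 825 regions (4.36%, 3.07 to 5.99%) and 2.50% of all 35988 regions.

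Within the list of control replicate 2 the regions were of middling strength. The fold of the summit over its background had a median of 4.6 and ranged from 2.47 to 15.2, which placed the median member at percentile 43.3 of its list. Other regions of control replicate 2 alone that lay over 1 kb from a TSS had a median fold of 4.53 (percentile 41.0). The members were wider, with a median of 344 bp against 281 bp. The coverage at the summit had a median of 29 reads against 25. The local background exceeded the genome-wide level at 622 of 825 members (75.4%, 72.3 to 78.3%) and at 61.9% of the other distal regions (60.9 to 62.9%). The lists do not separate a peak's own reads from reads around it, so the source of a raised local background was not tested. Regions behind the gene were somewhat weaker than those inside it, with a median fold of 4.41 (n = 130) against 4.73 (n = 695), and 6.15% of them against 11.8% had a fold at or over percentile 90 of the list.

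The 12 strongest members had folds from 11.2 to 15.2. Ppp2ca led with a fold of 15.2 (percentile 99.5, 131 reads at the summit, chromosome 11, 52121836 to 52122382), 640 bp inside the gene. It was followed by Immt, which shapes the cristae of mitochondria (fold 13.6, chromosome 6, 71874253 to 71874993). Psmd7, a lid subunit of the proteasome, had a fold of 13.5. These 3 regions lay between 640 and 750 bp inside their genes. Gm6749, a predicted gene with 1 exon, had a fold of 13.3 and Tmem11, a protein of the inner mitochondrial membrane, a fold of 11.9. The next, at a fold of 11.8, was assigned to Rufy2 but lay 934 bp behind it and inside Hnrnph3, which codes for an RNA-binding protein. In the same way the region assigned to Tasor2 (fold 11.3) lay inside Gdi2, which keeps Rab proteins in their GDP-bound form. Both regions were thus within the transcript of a neighbour that the assignment by nearest 3′ end did not name.

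The other leading members were also within genes. Bex3, a small X-linked adaptor protein, had a fold of 11.5 and Calm2, one of the genes for calmodulin, a fold of 11.4. Rab9 and Rab6a, small GTPases of endosomal and Golgi transport, had folds of 11.4 and 11.3, and Tubb2a, a β-tubulin, had a fold of 11.2. By the rule, none of these 12 regions overlapped a peak in the other lists. The rule also fixed in part how seldom the other lists had a peak near these 3′ ends. A summit within 1 kb of the 3′ end was present in control replicate 1 at 21 of the 806 marked genes (2.61%). Over all 21094 eligible coding genes the share in that library was 3.53%. In esculetin replicates 1 and 2 it was present at 5 (0.620%) and 8 (0.993%) marked genes, against 1.62% and 2.27% of all.

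The signal was not restricted to the 3′ ends. Among the 679 marked genes of at least 5 kb, the last of 10 equal bins along the gene held 1.07 summits per gene in control replicate 2, a value that the rule set, as it did in part for bin 9 in the shorter genes. Bins 9 and 8 held 0.255 and 0.191, against 0.0353 and 0.0339 in control replicate 1. The excess was not limited to marked genes: in the 7476 genes of this length that were not marked but had a promoter peak in control replicate 2, the bins held 0.126 and 0.104 in control replicate 2 and 0.0349 and 0.0380 in control replicate 1. The numbers in control replicate 2 were lower toward the middle of the gene, with 0.122 in bin 5, and higher at the start, with 0.437 in bin 1. In that bin the other lists were close to this, with 0.389 in the first control and 0.277 and 0.325 in the esculetin libraries. The libraries thus were more alike at the 5′ end of these genes than in their second part.

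**Figure D3:**
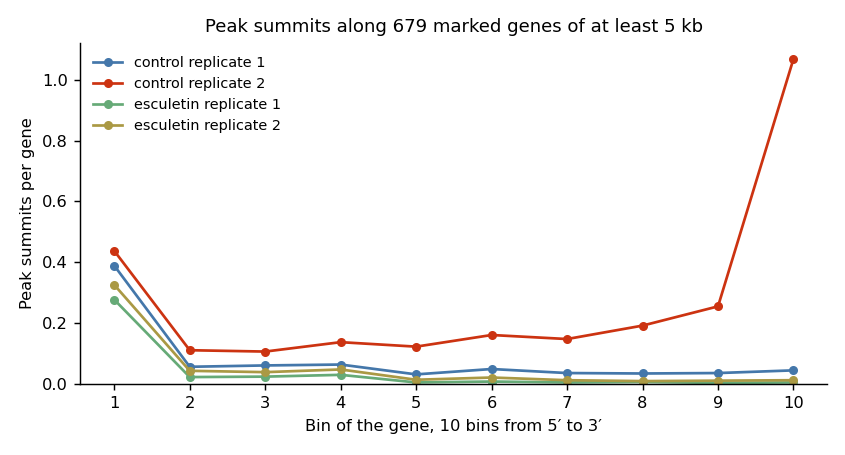
Peak summits per gene (y axis) in each of 10 equal bins of the gene from 5′ to 3′ (x axis) for the 679 marked genes of at least 5 kb, 1 line per library. Control replicate 2 is at 1.07 in the last bin, which the choice of genes set, and at 0.437 in the first, where the other libraries are between 0.277 and 0.389.

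Several regions of control replicate 2 alone could lie in a single gene. Of the 806 marked genes, 355 (44.0%) held 2 or more such regions between their ends and 68 held 5 or more. Since the genes were chosen for such a region, usually inside the gene, these counts are in part set by the rule. The same counts over all eligible genes are not given here, so these cannot be read as a trait of marked genes. Setd5, a chromatin regulator with a SET domain, held 13 over 76171 bp. Bcor, a corepressor that binds BCL6, Ckap5, which promotes microtubule growth, Cltc, the clathrin heavy chain, and Prpf8, the core of the spliceosome, held 10 each, as did Taok1 and Tnpo1. Prpf8 reached this number in 22671 bp, whereas Bcor spans 123780 bp. The 3′-end region of these genes ranged from a fold of 2.67 at Prpf8 to 10.0 at Ckap5.

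The marked genes more often had an accessible promoter in every library. A promoter peak, here a summit within 1 kb of a TSS of the gene, was present in control replicate 1 at 568 of 806 marked genes (70.5%, 67.2 to 73.6%), against 41.2% of all 21094 eligible coding genes, those with room for a region that the rule would accept. In esculetin replicate 1 the share was 57.7% (54.2 to 61.1%) against 30.5%, and in esculetin replicate 2 it was 67.6% (64.3 to 70.8%) against 38.4%. In control replicate 2, the library that chose the members, it was 72.7% against 42.6%. Read the other way, 1.70% of the genes with no promoter peak in the 3 other libraries were marked, 4.52% of those with 1, 4.91% of those with 2 and 7.43% of those with all 3 (437 of 5880, 6.77 to 8.13%). The share marked over all eligible genes was 3.82%. Where a promoter peak was present its strength was ordinary: in control replicate 1 the median percentile was 73.6 for marked and 71.2 for all eligible genes.

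**Figure D4:**
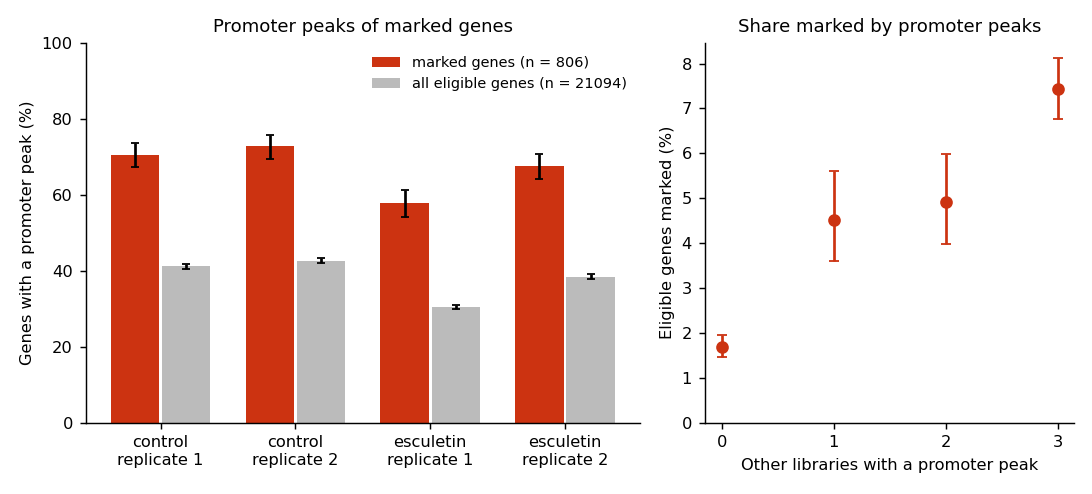
Left, genes with a promoter peak (y axis, percent) in each library for the 806 marked genes and all 21094 eligible genes. Right, eligible genes marked (y axis, percent) by the number of the other 3 libraries with a promoter peak at the gene (x axis). Bars are exact 95% intervals. Marked genes are above all genes in every library, and the share marked goes from 1.70% to 7.43%.

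The letters of the promoters followed the same split. RefSeq promoters were found for 654 of the 806 marked genes and 17175 eligible genes, and each was searched over 300 bases, on both strands, for CCAAT (NF-Y), GGGCGG (the GC box of SP and KLF factors), TATAAA (the TATA box), CCGGAAGT (ETS factors), GAGGAAGT (PU.1), TGACGTCA (CREB) and AAGATGGC (YY1). The GC box was present at 66.7% of marked and 46.9% of all promoters. Among genes with a promoter peak in the 3 other lists it was present at 75.2% of 379 marked and 73.8% of 4990 genes. The TATA box was present at 8.26% of marked and 13.4% of all promoters, and within the genes open in the 3 other lists at 6.07% and 5.17%. CCAAT stood at 39.6% and 39.5%, and the PU.1 motif at 1.99% and 3.18%. For the GC box and the TATA box the difference between marked and other genes was thus smaller among open promoters than over all promoters. A ratio of observed to expected CpG of at least 0.6 was found at 76.5% of marked and 49.0% of all promoters, and among genes open in the 3 other lists at 90% and 86.7%. A match is only a match of letters, and a motif that is missing says nothing on its factor.

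Genes of known function were grouped in lists, and the number marked in each was set beside the 3.82% of all eligible genes. Counts are of genes that could be marked under the rule. No list was tested, since the members were chosen on the same calls.

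**Figure D5:**
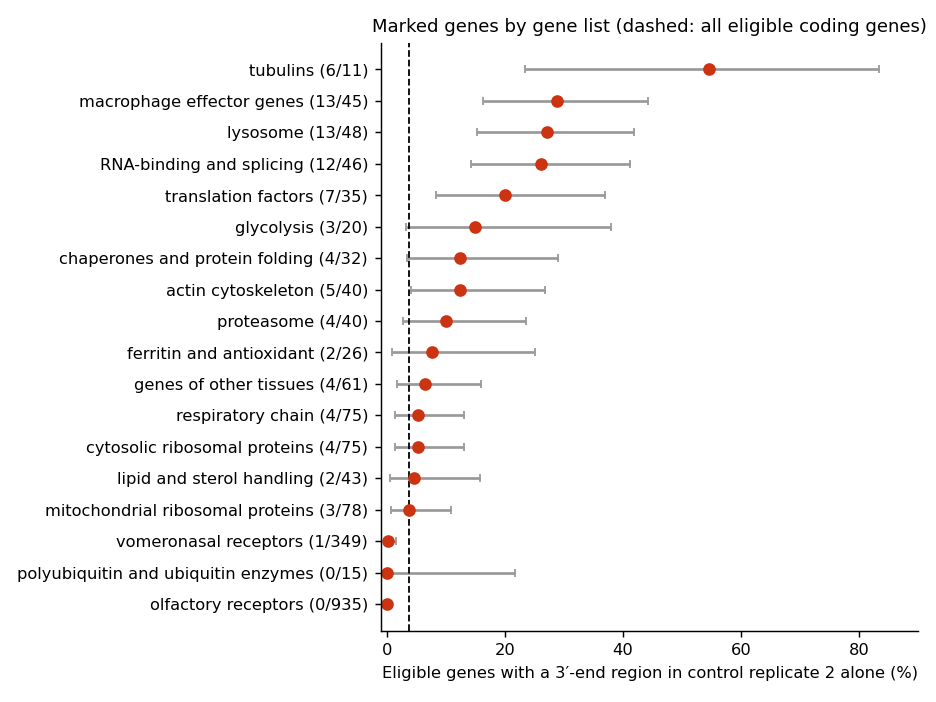
Share of eligible genes with a 3′-end region in control replicate 2 alone (x axis, percent) for each gene list (y axis, marked over eligible genes). Bars are exact 95% intervals, and the dashed line is the 3.82% over all eligible coding genes. Tubulins are at 54.5%, macrophage effector genes, lysosome and RNA-binding and splicing genes between 26.1% and 28.9%, and olfactory receptors at 0.

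Genes of macrophage function formed one of the most marked lists, with 13 of 45 genes (28.9%, 16.4 to 44.3%) and a median fold of 4.73. Ccl4, a chemokine that attracts monocytes and T cells, had a fold of 7.89 at 205 bp inside the gene (chromosome 11, 83664253 to 83664704). Lyz2, the lysozyme of macrophages, had a fold of 7.11 at 249 bp (chromosome 10, 117277355 to 117278226), and Csf1r, the receptor for the macrophage growth factor M-CSF, a fold of 6.60. Tyrobp, the adaptor DAP12 of activating myeloid receptors, had a fold of 5.97 at 120 bp inside the gene. All 13 lay inside their genes. None of the 13 had a promoter peak in all 3 other libraries, and 8 of them, Lyz2 and Csf1r included, had none in any of the 3. Over the whole list, 4 of the 45 genes had a promoter peak in all 3 other libraries. Lyz1 and Lyz2, which share most of their sequence, are both among the 13, and their values are uncertain for that reason. Of the 12 macrophage markers used to check the label, 6 were marked at the 3′ end (Cd68, Csf1r, Itgam, Lyz2, Mpeg1 and Tyrobp). Of the markers of other cell types, 2 of 3 for fibroblasts (Col1a1 and Col1a2) and 1 of 3 for hepatocytes (Apoa1) were marked as well, and none for T cells, B cells or epithelium.

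The lysosomal genes were marked in 13 of 48 cases (27.1%, 15.3 to 41.8%), with a median fold of 4.18. Atp6ap1 had a fold of 6.72. Atp6v1f and Atp6ap2, both of the vacuolar proton pump, had folds of 6.39 and 6.30. Of these 13 genes, 9 had a promoter peak in all 3 other libraries, as had 27 of the 48 in the list.

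Among the genes for RNA-binding and splicing proteins, 12 of 46 were marked (26.1%, 14.3 to 41.1%). Matr3, a protein of the nuclear matrix, had a fold of 9.85. Nono, a paraspeckle protein, had a fold of 9.45 at 817 bp inside the gene (chromosome X, 101447536 to 101448017). Son, a scaffold of nuclear speckles, and Hnrnpm, an hnRNP protein, had folds of 9.26 and 7.32. All 12 genes had a promoter peak in each of the other libraries, as had 45 of the 46 in the list. Translation factors were marked in 7 of 35 cases (20%, 8.44 to 36.9%), led by Eif3d (fold 9.0), Eif3a (8.61), Pabpc1, which binds poly(A) tails (7.68), and Eif1 (7.31).

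Of the 11 tubulin genes in the list 6 were marked (54.5%, 23.4 to 83.3%), with a median fold of 9.18. Over all eligible α- and β-tubulin genes by symbol, a count made after the values were seen, it was 5 of 15 (33.3%). Tubb2a had a fold of 11.2, with 127 reads at the summit. Tuba1c and Tuba1b, neighbouring α-tubulin genes of nearly the same coding sequence, had folds of 10.4 and 9.54 with 221 reads and 251 reads at the summit, and Tubb3, the neuronal β-tubulin, had a fold of 8.82. The local background at Tuba1b was 25.4, far over the genome-wide 4.08. The authors removed reads that map to several places, so reads from stretches shared by nearly identical copies may be missing. The values of single tubulins are uncertain for that reason.

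The remaining lists were closer to the background. Actin cytoskeleton genes were marked in 5 of 40 cases (12.5%), led by Tln1, which couples integrins to actin (fold 8.02), Arpc2 (6.74) and Actr2 (5.11) of the ARP2/3 complex, with Arpc5 at 3.87. Chaperones were marked in 4 of 32 (12.5%): Pdia4, Hspd1, Cct7 and Hsp90ab1, with folds from 6.24 to 8.10. Glycolysis gave 3 of 20 (15%), which were Aldoa (fold 4.83), Gapdh (3.35) and Eno2 (3.06, behind the gene), and the proteasome 4 of 40 (10.0%), with Psmd12, Psmb5 and Psmd4 besides Psmd7. Of the ferritin and antioxidant genes 2 of 26 were marked (7.69%, 0.946 to 25.1%), Fth1 (fold 4.90) and Prdx1 (4.53). The intervals were 4.19 to 26.8% for actin cytoskeleton genes and 3.51 to 29.0% for chaperones. They were 3.21 to 37.9% for glycolysis and 2.79 to 23.7% for the proteasome. All of them cover counting error only and were not used as a test against the 3.82%.

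The genes of cytosolic ribosomal proteins, which are highly expressed in most cells, were marked in 4 of 75 cases (5.33%, 1.47 to 13.1%): Rps4x (fold 7.06), Rpl8 (6.83), Rpl5 (6.59, 804 bp behind the gene) and Rps18 (5.06). A peak of control replicate 2 within 1 kb of the 3′ end, shared with other lists or not, was present at 7 of the 75. Over all eligible genes it was present at 1539 of 21094. The ribosomal protein genes have many processed copies, and the authors removed reads that map to several places. The part of this in the count was not tested. The respiratory chain gave 4 of 75 (Atp5g3, Uqcrb, Ndufa8 and Cox6b1) and the mitochondrial ribosomal proteins 3 of 78 (Mrpl16, Mrps16 and Mrps30). None of 15 ubiquitin genes was marked, with an exact upper bound of 21.8% at the 95% level.

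Sensory receptors were hardly marked, and a few genes of other tissues were marked. None of 935 olfactory receptors was marked (exact upper bound 0.394%), and 1 of 349 vomeronasal receptors was, Vmn1r125, whose region lay 666 bp behind the gene. Of 61 genes of other tissues 4 were marked (6.56%, 1.82 to 15.9%): the collagen genes Col3a1 (fold 10.3), Col1a2 (6.70) and Col1a1 (3.11) and Apoa1, the main protein of high-density lipoprotein (3.79). All 4 regions lay inside the genes, and none of the 4 genes had a promoter peak in the other 3 libraries. Over the 61 genes, promoter peaks were present at 4.92% in control replicate 1, and 1.64% and 0% in esculetin replicates 1 and 2. The share marked was 3.82% over all eligible genes. Over eligible genes with no promoter peak in the 3 other libraries it was 1.70%.

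Lipid and sterol handling, the process that oxLDL loading engages, was represented by 2 of 43 genes (4.65%, 0.568 to 15.8%). They were Abca1, the exporter of cholesterol to apolipoprotein A-I, with a fold of 4.53 (percentile 41.0) 396 bp inside the gene, and Mylip, which targets the LDL receptor for degradation. At Abca1 neither control replicate 1 nor the esculetin libraries had a peak within 1 kb of the 3′ end. Of the other loci that the study examined, Cd36, the scavenger receptor for oxLDL, Nceh1, a cholesteryl ester hydrolase, Slc27a4, a fatty acid transporter, and Fabp4, a fatty acid carrier, had no peak there in any list. Cebpb, a transcription factor gene of 1 exon, could not be marked, since every position near its 3′ end lay within 1 kb of a TSS, its own or another. Control replicate 2 had a peak there, 670 bp inside the 3′ end (percentile 39.7), and the other lists had none.

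Some families were counted after their values were seen. Of 6 genes for 14-3-3 proteins, adaptors that bind phosphorylated partners, 4 were marked (Ywhae, Ywhah, Ywhaq and Ywhaz). Rab GTPases gave 6 of 59 (10.2%), collagens 5 of 44 (11.4%), zinc finger genes of the Zfp series 13 of 366 (3.55%) and solute carriers 7 of 337 (2.08%).

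Some pseudogenes named after marked genes also had a peak in the same library. RefSeq names 65 pseudogenes after 40 of the marked genes, and a peak summit lay in 35 of the 65 in control replicate 2, in 6 in control replicate 1 and in none in the esculetin lists. Over all 774 pseudogenes so named after an eligible gene, the numbers were 298, 70, 10 and 8. Copies of Eif1, Gapdh, Hspd1, Matr3, Rps4x, Rps18, Tubb2a and Ybx1 were among the 35. The names were matched by symbol alone, so copies under other names are not counted. Whether a named copy is a processed one was not checked.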

How the data were processed

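ATAC-seq peak lists of 4 libraries from RAW264.7 cells were used, 2 per group as the labels assign them. Trim-Galore was used by the authors for trimming, Bowtie2 for alignment to mm10, Sambamba to discard duplicates and reads with several placements, and MACS2 for peak calling in each library. The study lists the versions of these tools, which are not repeated here. Options, such as a Tn5 shift of the reads, are not given in the sources used here. Each deposited list gives a peak's position, a score, the fold of its summit over background (a linear ratio), the −log10 p and −log10 q of the summit, and the summit's place in the peak (other). Fold, p and q depend on depth, so they were used only within a list, as raw values or percentiles. They were not compared peak by peak between libraries. Only the genome-wide background coverage solved from fold and p was set side by side across libraries.

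Peaks were merged at an overlap of 1 bp. Gene ends came from RefSeq (GRCm38.p6, the same coordinates as mm10). Strand came from the RefSeq promoter table for 17273 and from GENCODE (matched by symbol and chromosome, no coordinate used) for 3937 of 21210 coding genes, and the sources gave opposite strands for 128 of the 22011 genes with both (0.582%). TSSs were the gene 5′ ends and all RefSeq promoter starts. Summit coverage and local background were solved from each fold and p under a Poisson model. The solver and the rule were tested on simulated data. A gene was eligible when some position within 1 kb of its 3′ end lay over 1 kb from every TSS. Shares carry exact Clopper-Pearson intervals (95%). No test across libraries was made, since 1 library chose the members. Intervals were computed with SciPy 1.17.1, tables with pandas 2.3.3 and NumPy 2.4.6 under Python 3.11.15, and plots with matplotlib 3.10.9.

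The members and the gene lists were chosen with earlier results of these data known. Genes were named by rule: the 12 members of highest fold, up to 4 marked genes of highest fold per list, the 5 genes with the most regions of control replicate 2 alone (2 more, Taok1 and Tnpo1, are named because they tie), the loci of the study (Cd36, Cebpb, Nceh1, Abca1, Slc27a4 and Fabp4), and the members nearest the limits of the rule. Genes named beyond these, such as further members of a list or a family, were chosen after their values were seen. Some genes that the rule would name are not reported here. Alternatives were the width of the 3′ window, the position of a region, joining of peaks, stricter or equal lists, TSSs of genes with no known strand, pseudogenes kept, and each other library left out. The use of gene 5′ ends only and of members inside their own gene was added after seeing the data.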

Additional observations from a re-analysis of the deposited data

How the results depend on the processing

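Of 142 values recomputed for 12 results, 114 stayed within 1.5 times the main count or within the exact interval of the main share or median, 28 moved and 0 reversed. A window of 500 bp gave 353 regions at 351 genes, 2.80% of the regions in control replicate 2 alone, a median position of -297 bp, 2 ribosomal protein genes, and 3′-end shares of 0.854%, 1.65%, 0.511% and 0.423% in the lists of control replicates 1 and 2 and esculetin replicates 1 and 2. A window of 2 kb gave 1575 regions at 1443 genes, 12.5%, -828 bp, 7 ribosomal protein genes, and shares of 3.40%, 7.19%, 1.71% and 1.94%. These follow from the width of the window. With the top 8559 peaks of each list by p there were 272 regions at 270 genes (252 of them shared with the 806), 7.22%, a median of -585 bp, promoter peaks at 57.8%, 67.0% and 73.7% of the marked genes in control replicate 1 and esculetin replicates 1 and 2, and 3′-end shares of 1.04% and 3.75% in the controls and 1.01% and 0.693% in the esculetin lists. The lists are then shorter by construction, and the promoter shares of all eligible genes were not recomputed. Without control replicate 1, esculetin replicate 1 or esculetin replicate 2, the regions numbered 834 to 945 and were 5.33% to 6.55% of those in control replicate 2 alone. Without control replicate 2 no region is left by the rule. Gene 5′ ends alone as TSSs, chosen after seeing the data, gave 827 regions, and members inside their own gene, likewise, 682 genes. No paired analysis was possible because no result came from a test. A region is in control replicate 2 alone by the calls at a limit, and a signal under the limit in another library does not show in a peak list. The peak lists hold no counts outside peaks, so levels at these ends in the other libraries are unknown.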

Other observations

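Of the 151 regions with a peak in control replicate 2 and esculetin replicate 1 only, 13 lay at a 3′ end by the same rule (8.61%, 4.66 to 14.3%), and all 13 lay inside the gene. They were at Ctss, Ly86, C1qb, Apoe, C1qc, Cst3, Fcgr3, Fcer1g, Cd9, P2ry12, C1qa, Sirpa and Dapk3, which include the 3 chains of complement C1q, the protease cathepsin S, and the Fc receptor γ chain with one of its receptors. The fold in control replicate 2 went from 3.33 at Dapk3 to 17.2 at Ctss (percentile 99.7 of its list), and in esculetin replicate 1 the region of Ctss had a percentile of 93.8 in that list. These genes were chosen after their values were seen. Macrophage effector genes with a peak summit within 1 kb of the 3′ end numbered 24 of 45 in control replicate 2, 6 in the first control, and 6 and 0 in the esculetin libraries. Over all 21094 eligible genes the numbers were 1539, 744, 342 and 478 in the same order.

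Marked genes lacked a promoter peak less often than all eligible genes did. In the libraries other than the one that chose the members, 196 of 806 marked genes had none, against 11554 of 21094 eligible genes. Of the 806 marked genes, 167 had no promoter peak in any of the 4 libraries. The highest folds among them were those of Gm6749 (13.3), Cnp, an enzyme of myelinating cells (10.3), Lrrc39 (9.58), Cnn3, a calponin that binds actin (9.55), and Csl (8.99). Gm6749 and Csl have 1 exon each.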
